A study of Mus musculus with 44 samples.

Results

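The hippocampus of an adult mouse was compared with that of mouse embryos by 3 assays of the same lysates, with 1 library per tissue and assay. The members were found by their labels: 6 of the 44 samples of the series. RNA-seq counted reads on coding regions in poly(A)-selected RNA, ribosome profiling counted the fragments that ribosomes protect from nuclease (ribosome-protected fragments, RPFs), and PAL-seq v2 measured poly(A)-tail lengths on tags from mRNA 3′ ends. Of 15359 genes listed in any of these files, 5436 had 10 RPM (reads, scaled by the authors to 1000000 per library) or more in both RNA-seq files and were compared in RNA, 5431 of them also had an RPF in both tissues and were compared in RPFs and in translational efficiency (TE, the ratio of RPFs to RNA-seq reads), and 169 had 50 PAL-seq tags or more in both tissues and were compared in tail length. A further 910 genes reached 10 RPM only in the adult and 2021 only in the embryo. The cutoff stood at 197 reads in the adult and 167 in the embryo, which lets more genes pass in the embryo. With counts under 3 reads set to 3, 820 of the 910 and 1336 of the 2021 were over 2-fold apart in RNA. Members of gene lists at the cutoff in 1 tissue only, counted below, stand beside these numbers.

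The adult tissue came from 1 male C57BL/6J mouse and the embryonic tissue from embryos of embryonic day 16, whose sex was not determined. Neither tissue had been treated. Without replicates no difference could be tested, age cannot be told apart from sex, dissection or the preparation of a single lysate, and each value below describes these libraries. Differences are log2 values, adult minus embryonic, after each count was divided by the library's reads on listed genes, and levels scaled in the same way, to 1000000 reads on genes, are given as gene RPM. A gene is counted as past 2-fold where that difference was above 1 or below -1, and intervals are 95% intervals that cover counting error only. The tissue is a mixture of cells, so a lower level can mean fewer cells of a type or less RNA per cell, which bulk libraries cannot tell apart.

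In the mouse, embryonic day 16 lies within the period when hippocampal pyramidal neurons are born. Radial glia, the stem cells of the ventricular wall, divide and give rise to neurons that migrate outward, extend axons and later form synapses. The adult hippocampus has mature excitatory synapses, whose postsynaptic side carries AMPA and NMDA receptors, scaffolds and the calcium-dependent kinase CaMKII, and it holds astrocytes and the oligodendrocytes that make myelin, which mostly arise after birth.

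RNA-seq gave 7280299 reads on genes in the adult and 7689624 in the embryo, and ribosome profiling gave 21658829 and 23212489 RPFs. Of 15 markers of hippocampal regions, 7 were at the cutoff in both tissues, 5 only in the adult and 3 only in the embryo. Among the 7, Prox1, a transcription factor of dentate granule cells, had 743 reads in the adult and 1013 in the embryo. Zbtb20, a transcription factor of the hippocampal field, had 1411 and 2683. The 14 markers of ventral forebrain and thalamus summed to 36.9 gene RPM in the adult and 88.2 in the embryo, and the 7 listed erythroid markers to 19.4 and 31.2, with none of either list at the cutoff in both tissues. Choroid plexus RNA was present in both dissections, since Ttr, the thyroid hormone carrier made by that epithelium, had 9910 RNA-seq reads in the adult and 4437 in the embryo, and the 14 markers of meninges and choroid plexus summed to 3448 and 768 gene RPM. Ttr, Enpp2 with 7544 and 259 reads and Ptgds with 5280 and 78 carried that sum. In RPFs, Enpp2 had 987 gene RPM in adult hippocampus and 840 in an adult cortex library of the series. Ptgds had 1788 and 1348, and Ttr 2886 and 936. Which cells the reads of these genes came from was not tested, so the sum does not measure choroid plexus alone. Of the 14, 3 were at the cutoff in both tissues, 5 only in the adult and 0 only in the embryo. Kl, with 505 and 3 reads, was among the 5. The choroid plexus markers Clic6, with 207 and 311 reads, and Folr1, with 77 and 85, were not higher in adult RNA. Both had more RPFs in the adult, 1421 and 1094 for Clic6 and 616 and 373 for Folr1. The part that such cells had in other differences was not tested.

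The spread of RPFs over genes limits what single genes can show. Both hippocampal RPF libraries were the deeper ones here but listed only 12653 and 11880 genes, against 14957 genes in the adult cortex RPF library with 7498926 RPFs. Among 938 genes with 20 to 39 RNA-seq reads in the embryo, 32.5% had no RPF at all, while those with any had a median of 85 RPFs. In the adult, 19.2% of 1159 such genes had none and the others had a median of 92 RPFs. In an unstimulated cortical culture of the series, 0.0825% of 2423 such genes had none at a median of 166 RPFs. Its RNA-seq was rRNA-depleted and had only 508771 reads on genes. The same range of reads thus holds more highly expressed genes there, and neither this share nor the culture's estimate below is like for like. For the 1159 genes of the adult hippocampus, the adult cortex RPF library had 0.431% at 0 and a median of 29 RPFs. If fragments fell on these genes independently, the share of genes at 0 and the mean count would correspond to 66.5 reads per fragment in the adult and 95.5 in the embryo. Genes in the other ranges of RNA-seq reads, from 10 to 159, gave up to 89.8 in the adult and 142 in the embryo, so these are the lowest of 4 estimates, and the same estimate gave 34.1 in the culture. Why RPFs were spread in this way was not tested. Intervals of RPF and TE values below are widened by 66.5 and 95.5, a choice made after the spread had been seen.

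RNA levels differed widely. Of 5436 genes, 826 (15.2%) were past 2-fold higher in the adult and 976 (18.0%) lower, 33.1% in all, with a median difference of -0.17 and an SD over genes of 1.15. In RPFs, 1100 of 5431 genes (20.3%) were higher and 1465 (27.0%) lower, 47.2% in all, with an SD of 1.60. RNA and RPF differences had a Spearman correlation of 0.775 across the 5431 genes, which share lysates but no libraries. As a yardstick from another tissue, a culture transduced with GFP and an unstimulated culture had 0.840% of 4287 genes past 2-fold in RNA and 0.490% in RPFs. The reference total matters for direction. The authors' own RPM, whose total includes reads outside the listed genes, moves each RNA difference by -0.32, and the RNA calls then split into 583 higher and 1506 lower. Centring on the median gives 983 higher and 737 lower. RNA medians of the gene lists below kept their sign under both.

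**Figure D1:**
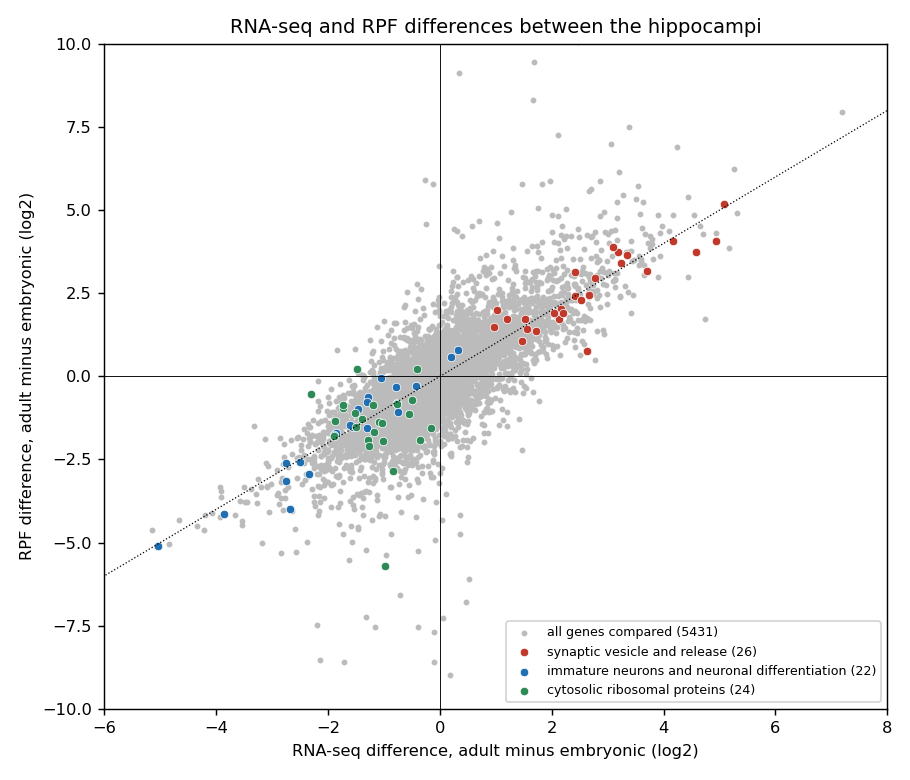
Each point is a gene, placed by its RNA-seq difference (x axis, log2, adult minus embryonic) and its RPF difference (y axis, log2), and the dotted line marks equal differences. The 26 synaptic vesicle genes lie at the upper right and most of the 22 genes of immature neurons and the 24 ribosomal protein genes at the lower left, close to the dotted line.

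The genes of dividing progenitors were the lowest in the adult. Vim, the intermediate filament of radial glia (chr2:13574311-13582826 in GRCm38), had 363 RNA-seq reads in the adult and 13676 in the embryo, 49.9 and 1778 gene RPM. Its difference was -5.16 (interval -5.31 to -5.01), and its RPFs, 1698 and 44537, differed by -4.61 (-5.25 to -4.04). Fabp7, the fatty-acid-binding protein of radial glia (chr10:57784923-57788450), had 235 and 5050 reads, a difference of -4.35 (-4.54 to -4.16). Its RPF difference of -4.50 (-5.50 to -3.65) was close to that in RNA. Notch1, the receptor that keeps progenitors undifferentiated, had 290 and 3543 reads and 986 and 23522 RPFs. Its RPF difference, -4.48 (-5.34 to -3.72), was larger than its RNA difference of -3.53, and the TE difference of -0.94 (-1.72 to -0.17) rests on few adult fragments.

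Most members of the progenitor list were too low in the adult to be compared at all. Of 24 listed genes, 6 were compared, 16 reached the cutoff only in the embryo and 0 only in the adult. Among the 6, 4 were past 2-fold lower in RNA and 0 higher, beside 18.0% and 15.2% over all genes. Nes, the filament protein nestin, had 107 reads in the adult and 10530 in the embryo. Of 30 genes of the cell cycle and DNA replication, 22 reached the cutoff only in the embryo, and 4 of the 5 compared were past 2-fold lower. Cdk4, a kinase that starts the cycle, had 308 and 3709 reads, a difference of -3.51 (-3.68 to -3.34). Ccnd2, its cyclin partner, had 465 and 2592 reads, and Ccnd1, another such cyclin, 204 and 300, a difference within 2-fold. Top2a, the topoisomerase of dividing cells, had 47 and 3213 reads and 19 and 9817 RPFs.

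Replication-dependent histone mRNAs end in a stem loop rather than a poly(A) tail, and the RNA-seq was poly(A)-selected while the RPFs were not. Of the 63 listed histone genes, 54 were under the cutoff in both tissues. These include H3f3a, a replacement histone with a polyadenylated mRNA, with 0 and 1 reads and 0 and 2 RPFs, and the parts of selection and of near-identical gene copies were not tested. Summed over the 63 genes, RPFs came to 2121 gene RPM in the adult and 12902 in the embryo, where RNA-seq gave 292 and 942. The 4 histone genes compared include H3f3b, a replacement histone with a polyadenylated mRNA, which had 239 and 1103 reads. All 4 were past 2-fold lower in adult RNA, beside 18.0% over all genes, and 3 of the 4 in RPFs, beside 27.0%.

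Genes of young neurons were lower too. Of 30 genes of immature neurons and neuronal differentiation, 22 were compared, with a median RNA difference of -1.52. Of these, 16 were past 2-fold lower and 0 higher, beside 18.0% and 15.2% over all genes. Another 5 of the 30 reached the cutoff only in the embryo, beside 2021 of 15359 listed genes. In RPFs 13 of the 22 were past 2-fold lower and 0 higher, beside 27.0% and 20.3% over all genes. Dpysl3, a collapsin response mediator of growing axons, had 456 and 15885 reads and 2007 and 73871 RPFs, differences of -5.04 in RNA and -5.10 in RPFs. Dpysl5, of the same family, had 258 and 6945 reads. Dcx, the microtubule binder of migrating neurons, had 40 and 3081 reads, and Sox11, a transcription factor of new neurons, had 125 and 7604, so both were under the cutoff in the adult.

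Not all of the neuronal differentiation list moved far. Neurod6, a transcription factor of pyramidal neurons, had 1490 and 3868 reads and 5151 and 9469 RPFs. Its RNA difference of -1.30 was past 2-fold and its RPF difference of -0.78 was not. Basp1, a membrane protein of growth cones, had 2386 and 5254 reads but 18272 and 20112 RPFs, so that its RNA difference of -1.06 stood beside an RPF difference of -0.04 (-0.30 to 0.23).

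Axon growth and guidance genes went both ways. Of 34, 24 were compared, with a median RNA difference of -0.73, 11 past 2-fold lower, beside 18.0% over all genes, and 4 higher, near the 15.2% over all genes. Another 7 of the 34 reached the cutoff only in the embryo, beside 2021 of 15359 listed genes. Dcc, the netrin receptor that steers commissural axons, had 351 and 4332 reads, a difference of -3.55 (-3.71 to -3.39), and 1203 and 26478 RPFs. Cntn2, a cell adhesion molecule of early axon bundles, had 965 and 9899 reads, a difference of -3.28 (-3.38 to -3.18). Ncam1, the neural cell adhesion molecule, had 3190 and 4375 reads and stayed within 2-fold. Epha4, an ephrin receptor that is also found at adult synapses, had 3094 and 5725 reads and stayed within 2-fold as well.

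Among cytoskeletal genes, 13 of 26 were past 2-fold lower, beside 18.0% over all genes, and 4 higher, near the 15.2% over all genes. Tubb5 had 3935 and 31357 reads, Tubb3 had 1967 and 13937, and Tubb2b had 611 and 9872, differences of -2.92, -2.75 and -3.94. Tubb4a was higher in the adult, with 5870 and 2542 reads. Beta-tubulin genes are close in coding sequence, and how the counting divided reads among them was not tested. Nefl, the light neurofilament chain (chr14:68083863-68089095), had 6530 and 173 reads, a difference of 5.32 (5.10 to 5.54). Map1a, a microtubule binder of mature neurites, had 30707 and 2389 reads, a difference of 3.76, while Map1b, its early counterpart, had 28317 and 62219 reads, a difference of -1.06 (-1.08 to -1.04). The matrix proteoglycan gene Vcan, the cadherin gene Dchs1, the actin cross-linker gene Flna, Syne2 of the nuclear envelope and Ttc28 were further members of the lowest 10 in RNA, with differences from -4.85 for Ttc28 to -3.93 for Syne2.

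Synaptic genes made up the other end. Of 30 genes of the synaptic vesicle and its release, 26 were compared, with a median RNA difference of 2.47, 25 past 2-fold higher and 0 lower, beside 15.2% higher over all genes. In RPFs 25 of the 26 were past 2-fold higher as well, beside 20.3% over all genes, with a median of 2.36. Dnm1, the dynamin that retrieves vesicles (chr2:32308471-32353349), had 20093 and 624 reads, 2760 and 81.1 gene RPM, a difference of 5.09 (4.97 to 5.21). Its RPFs, 59540 and 1764, differed by 5.18 (4.52 to 5.93). Slc17a7, which loads glutamate into vesicles, had 12550 and 431 reads, a difference of 4.94 (4.80 to 5.08). Snap25, a membrane fusion protein, had 12296 and 540 reads, a difference of 4.59 (4.46 to 4.71). Bsn, a scaffold of the release site, had 12820 and 3027 reads, a smaller difference of 2.16.

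The postsynaptic list held the largest RNA difference among the genes compared. Camk2a, the alpha subunit of CaMKII, had 23879 reads in the adult and 172 in the embryo, 3280 and 22.4 gene RPM, a difference of 7.20 (6.98 to 7.42) or 147-fold. Its RPFs were 81117 and 354. Of the 32 genes of the list, 21 were compared, with a median RNA difference of 2.24, and 9 reached the cutoff only in the adult. Among the 21, 17 were past 2-fold higher and 0 lower, beside 15.2% and 18.0% over all genes. Grin1, the obligatory NMDA receptor subunit, had 6128 and 434 reads, and its RPFs were 32267 and 1192. Dlg4, the scaffold PSD-95, had 11902 and 2733 reads and 11907 and 2199 RPFs.

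**Figure D2:**
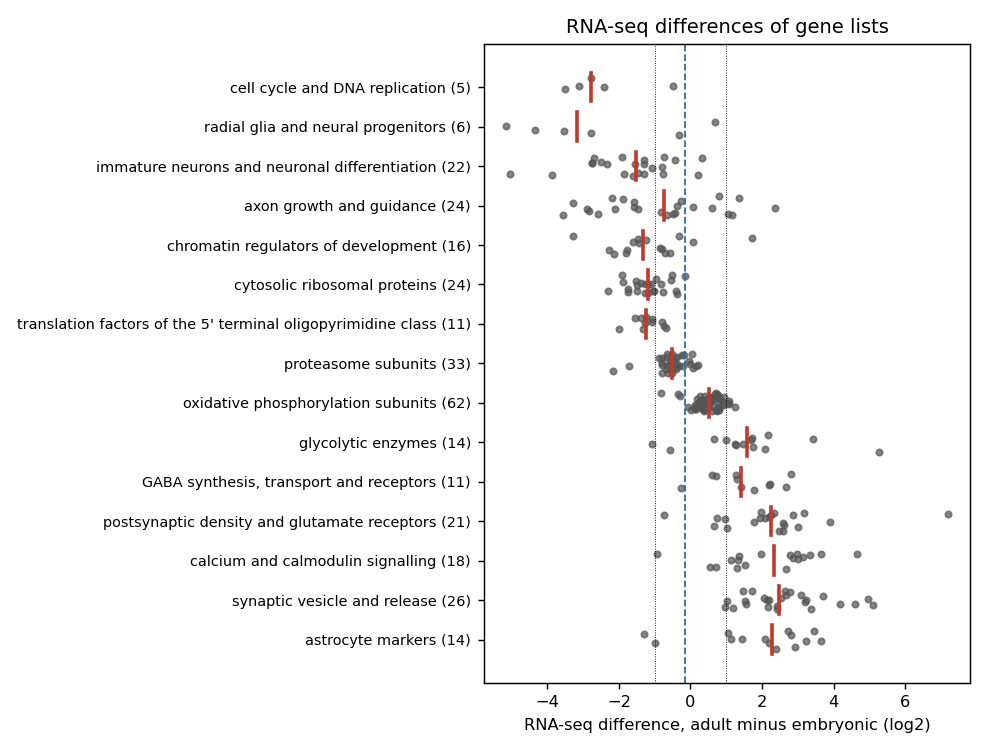
Each point is a gene of the named list with 10 RPM or more in both RNA-seq files, placed by its RNA-seq difference (log2, adult minus embryonic), and vertical jitter carries no value. Red bars mark each list's median, from -3.16 for neural progenitors to 2.47 for synaptic vesicle genes, the dashed line the median of all genes (-0.17), and dotted lines 2-fold.

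Calcium signalling genes moved with them. Of 25, 18 were compared, with a median RNA difference of 2.32, and 7 reached the cutoff only in the adult. Among the 18, 15 were past 2-fold higher and 0 lower, beside 15.2% and 18.0% over all genes. Hpca, the calcium sensor hippocalcin, had 9389 and 397 reads and 67345 and 3112 RPFs, a difference of 4.64 in RNA. Ppp3ca, the catalytic subunit of calcineurin, had 11671 and 1223 reads. In the GABA list 11 of 23 genes were compared, 8 past 2-fold higher and 0 lower in RNA, and 10 reached the cutoff only in the adult. Gad1, which makes GABA, had 2459 and 149 reads. In RPFs only 5 of the 11 were past 2-fold higher and 1 was lower, beside 20.3% and 27.0% over all genes. The lower one was Gabra4, a receptor subunit, with 444 and 177 reads but 320 and 839 RPFs.

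Several gene pairs that are known to exchange during maturation were compared member by member. Grin2a, the NMDA receptor subunit of mature synapses, had 1708 reads in the adult and 32 in the embryo, and 5789 and 0 RPFs. Grin2b, the subunit present early, was also higher in the adult, with 6624 and 1401 reads, a difference of 2.32. Slc12a5, the chloride exporter that makes GABA inhibitory, had 4671 and 116 reads and 22330 and 23 RPFs. Slc12a2, the chloride importer of young neurons, had 639 and 808 reads, a difference of -0.26 (-0.41 to -0.11). Scn1a, a sodium channel of mature neurons, had 1076 and 44 reads, and Scn3a, an early one, had 540 and 636.

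In the pairs of Grin2, Slc12a and Scn the late member was far higher in the adult, and the early member differed by less than 2-fold or was itself higher in the adult. Eno2, the neuronal enolase, had 6951 and 191 reads, and Eno1 had 1079 and 483. Ldhb, a lactate dehydrogenase subunit, had 1745 and 574 reads and Ldha 800 and 1252. Other genes of the list were past 2-fold lower in adult RNA. Glra2, the early glycine receptor subunit, had 17 and 308 reads, and Tubb3 and Map1b were lower as given above. Hcn3, a pacemaker channel, had 125 and 316 reads, but its RPFs, 324 and 206, went the other way. Map2, a dendritic microtubule binder, had 3223 and 4703 reads, within 2-fold.

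**Figure D3:**
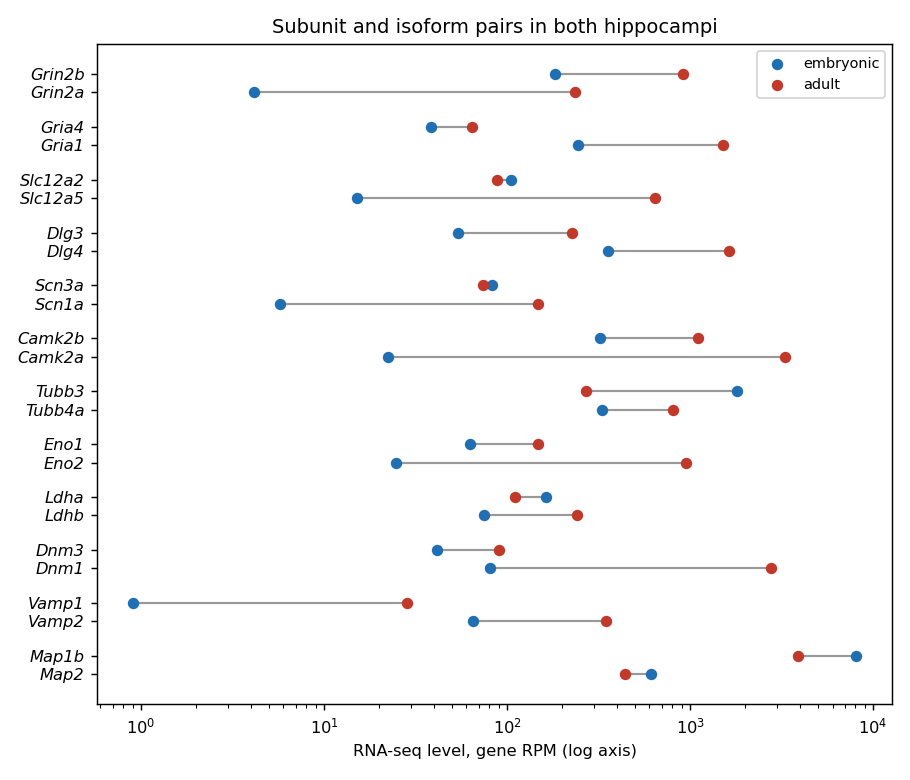
RNA-seq level of 12 gene pairs in embryonic (blue) and adult (red) hippocampus, in gene RPM on a log axis. Levels of different genes are not comparable because they are not divided by length, and among the genes drawn Slc12a2, Scn3a, Tubb3, Ldha, Map1b and Map2 are lower in the adult and the others higher.

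Glial genes were higher in the adult. Of 20 oligodendrocyte and myelin genes, 16 reached the cutoff only in the adult and 1, Trf, in both. Mbp, myelin basic protein, had 3324 reads in the adult and 78 in the embryo. Of 20 astrocyte genes, 14 were compared, 12 past 2-fold higher and 2 lower, beside 15.2% and 18.0% over all genes. Apoe, the lipid carrier made by astrocytes, had 14811 and 1441 reads, a difference of 3.44 (3.36 to 3.52), and Gfap, the astrocyte filament, 2541 and 214. The 14 microglia markers summed to 653 gene RPM in the adult and 140 in the embryo. The endothelial and mural list went the other way as a sum, at 159 and 386 gene RPM. Of its 14 genes, 6 reached the cutoff only in the embryo and 0 only in the adult, beside 2021 and 910 of 15359 listed genes. Its members were not all lower in the adult. Slco1a4 had 105 and 29 reads, and Pdgfrb, counted among the 6, had 190 and 194 reads and 1545 and 719 RPFs. Kdr, a receptor for vascular growth factor on endothelium, had 92 and 802 reads.

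Genes of protein synthesis were lower in the adult. Of 80 cytosolic ribosomal protein genes, 24 were compared, with a median RNA difference of -1.19, 16 past 2-fold lower and 0 higher, beside 18.0% lower over all genes. Another 12 of the 80 reached the cutoff only in the embryo, beside 2021 of 15359 listed genes. The measurement covers the family in part, since 17 of the 80 had no RNA-seq read in either tissue, and many have near-identical processed copies in the genome that a count of uniquely placed reads can empty. Rpl4 had 4493 and 9725 reads. Of the translation factors whose mRNAs start with a pyrimidine tract, as ribosomal protein mRNAs do, 11 were compared, 8 past 2-fold lower and 0 higher. Eef2, the elongation factor that moves the ribosome, had 9649 and 26310 reads, a difference of -1.37, and 26488 and 46266 RPFs, a difference of -0.70. Rack1, a protein of the small subunit, had 2411 and 10064 reads.

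The elongation factor gene Eef1a2 went against this group. It is the form of muscle and mature neurons, and it had 11814 and 578 reads, a difference of 4.43 (4.31 to 4.55), with 79882 and 2019 RPFs. Eef1a1, the form of most other cells, had 3239 and 8604 reads, a difference of -1.33 (-1.39 to -1.27). The list of glycolytic enzymes, which also holds glucose transporters, was higher in the adult, led by Eno2 and by Aldoa with 10417 and 1026 reads. Of 14 compared, 10 were past 2-fold higher. The 1 of these 14 past 2-fold lower was no enzyme but the glucose transporter Slc2a1, with 269 and 594 reads. The enzyme gene Hk2 reached the cutoff only in the embryo, with 100 and 340 reads and 118 and 1704 RPFs. Pfkp reached it only in the adult, with 2844 and 145 reads. Most subunits of oxidative phosphorylation stayed within 2-fold in RNA, but their median was 0.52, beside -0.17 over all genes. Of 62 compared, 4 were past 2-fold higher in RNA and 0 lower, beside 15.2% and 18.0% over all genes. In RPFs 12 were past 2-fold higher and 3 lower, beside 20.3% and 27.0%. Atp5a1, of the ATP synthase, had 11709 and 8587 reads.

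Genes under the cutoff in 1 tissue held the widest contrasts. Among the 10 with the most adult reads were Ddn, the dendritic protein dendrin, with 19648 reads in the adult and 83 in the embryo, Ptk2b, a calcium-activated tyrosine kinase, with 14811 and 98, and Nrgn, the calmodulin binder neurogranin, with 5297 and 43. Among the 10 with the most embryonic reads were Tnc, the matrix protein tenascin, with 64 and 6194, and Igfbpl1, with 37 and 5345. RPFs were still further apart for most of these genes: Nrgn had 32044 and 10 RPFs. Across the 138 genes over 32-fold higher in adult RNA, the embryonic count was a median of 1.38% of the adult count in RNA-seq and 0.0601% in RPFs, and 44 of them had no embryonic RPF. For the 123 genes over 32-fold higher in the embryo the medians were 1.29% and 0.288%. The lower of both levels was thus a smaller share in RPFs than in RNA-seq, in both directions, and what RNA-seq reads and clustered RPFs each contribute to this was not tested.

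TE, the RPF difference minus the RNA difference, varied less than RNA where counts were high. Of 5431 genes, 524 (9.65%) were past 2-fold higher in the adult and 676 (12.4%) lower, 22.1% in all. This share followed the RPF count closely. Among 144 genes with a mean of 100 to under 300 RPFs over both libraries, 62.5% were past 2-fold, and among 1217 genes with 300 to under 1000 RPFs it was 38.1%, with an SD of 1.33. Among 2417 genes with 1000 to under 3000 RPFs it was 21.4%, and among 315 genes with 10000 or more it was 2.86%, with an SD of 0.45. The share past 2-fold in RNA went the opposite way across these bins, from 17.4% to 59.7%. The unstimulated and GFP cultures had 1.33% of 4287 genes past 2-fold in TE, with an SD of 0.38. With the authors' RPM, TE differences move by 0.28 and split into 857 higher and 416 lower, so no direction is given for TE over all genes.

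**Figure D4:**
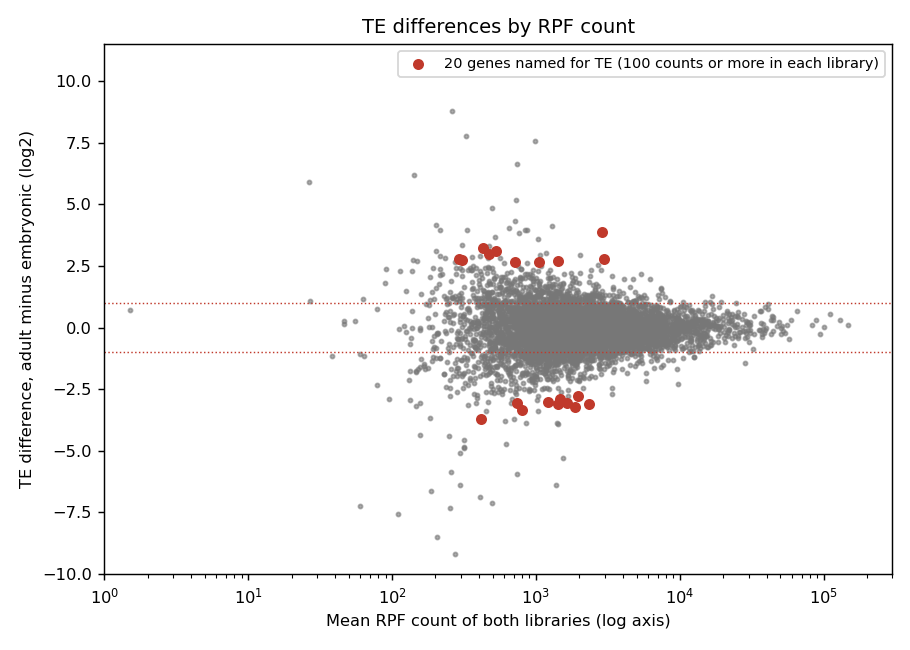
TE difference of each gene (y axis, log2, adult minus embryonic) against the mean of its adult and embryonic RPF counts (x axis, log scale), with dotted lines at 2-fold. The spread narrows from an SD of 1.33 at 300 to under 1000 RPFs to 0.45 at 10000 or more, and the 20 genes named for TE, in red, lie where it is wide.

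The 20 genes with the most different TE among those with 100 counts or more in each library illustrate this. Slc4a4, the sodium bicarbonate cotransporter of astrocytes, had the highest adult TE relative to the embryo among them, 3.89, from 1221 and 328 reads and 5674 and 104 RPFs. At 95.5 reads per fragment the embryonic count would correspond to about 1 fragment, and the interval ran from 1.16 to 6.63. Syt7, a calcium sensor of vesicle fusion, and Ube2ql1 had embryonic RPF counts of 105 and 190. Snx25, a sorting nexin, was the lowest of them at -3.69 (-5.94 to -1.45), from 684 and 261 reads and 137 and 686 RPFs. Rapgef4, an exchange factor activated by cyclic AMP, rests on more: 5709 and 225 reads and 1831 and 598 RPFs, a difference of 4.74 in RNA but 1.71 in RPFs, and -3.03 (-4.30 to -1.76) in TE.

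Genes with many RPFs gave narrower values. At a mean of 10000 RPFs or more, 9 of 315 genes were past 2-fold in TE, 5 higher and 4 lower, and they are named here after their values had been seen. Hsp90b1, a chaperone of the endoplasmic reticulum, had 6546 and 5418 reads but 17454 and 39520 RPFs, a TE difference of -1.43 (-1.66 to -1.20). Eif3a, the largest subunit of initiation factor eIF3, had -1.24 (-1.67 to -0.80), Agrn, the synapse organizer agrin, -1.18 (-1.72 to -0.65), and Tspan7, a tetraspanin, -1.18 (-1.55 to -0.80). On the higher side were Nptx1, the neuronal pentraxin that binds AMPA receptors, at 1.28 (0.56 to 1.99), and Mt3, the brain metallothionein, at 1.04 (0.35 to 1.73), with Tspyl4 at 1.03 (0.60 to 1.47). Basp1 and Marcks, both membrane-bound substrates of protein kinase C that are abundant in growth cones, had 1.02 (0.75 to 1.29) and 1.02 (0.66 to 1.38).

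TE medians of the gene lists were small. Of the 23 lists with 5 or more genes compared, the lowest were chromatin regulators of development at -0.57, the GABA list at -0.54 and the proteasome at -0.40, and the highest the postsynaptic list at 0.28. These kept their sign under the authors' RPM and under centring, whereas those of the synaptic vesicle, astrocyte, ribosomal protein, glycolysis and oxidative phosphorylation lists did not. For the proteasome, which degrades tagged proteins, 0 of 33 genes were past 2-fold higher in RPFs and 14 were lower, beside 20.3% and 27.0% over all genes, while in RNA 0 were higher and 2 lower, beside 15.2% and 18.0%. Psmd1, of its regulatory particle, had 1927 and 2295 reads and 2758 and 6891 RPFs, a TE difference of -1.05 (-1.61 to -0.49). In TE itself 0 of the 33 were past 2-fold higher and 5 were lower, beside 12.4% lower over all genes.

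A few genes known for translational control can be read individually. Fth1, the ferritin heavy chain, whose translation iron controls through an element in its leader, had 15033 and 3028 reads and 7095 and 3581 RPFs, so that a difference of 2.39 in RNA stood beside 1.09 in RPFs and -1.30 (-1.84 to -0.77) in TE. Atf4, the stress transcription factor held back by upstream open reading frames, had 1358 and 1439 reads and 1017 and 370 RPFs, a TE difference of 1.56 whose interval, -0.05 to 3.17, reached 0. Pum2, an RNA-binding repressor, had 2138 and 3269 reads and 1792 and 9915 RPFs, a TE difference of -1.83 (-2.45 to -1.22). Chd3, a chromatin remodeller, had nearly equal RNA, 16760 and 16952 reads, but 4458 and 10216 RPFs.

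The adult cortex gave RPFs from a further adult tissue. Camk2a had 3745 gene RPM of RPFs in the adult hippocampal library, 15.2 in the embryonic one and 2932 in the cortical one. Vim had 78.4, 1919 and 47.9 in the same order, and Eef1a2 had 3688, 87.0 and 4373. Hpca, at 3109, 134 and 942, and Gria1, an AMPA receptor subunit, at 1364, 204 and 393, differed more between the adult tissues. Other genes did not follow the adult hippocampus: Atf4 had 47.0, 15.9 and 12.7, Gabra4 had 14.8, 36.1 and 79.1, and Arl6ip1 had 144, 180 and 249.

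Poly(A) tails were shorter in the adult library. The deposited values move in steps of 0.5 nt, as medians do. Over 169 genes their median was 54 nt in the adult and 64 nt in the embryo, and the median difference was -10 nt, with 147 genes shorter and 22 longer. Past 20 nt, 17 genes (10.1%) were shorter and 0 (0%) longer, 10.1% in all. The values of both tissues had a Spearman correlation of 0.704 across the 169 genes, from libraries of separate tissues. Only 208 genes reached 50 tags in the embryo, against 951 in the adult, so the set holds mRNAs abundant in the embryo.

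Laptm4a, a lysosomal membrane protein (chr12:8921307-8938742), had the largest shortening, with 50 nt in the adult and 91.5 nt in the embryo, on 113 and 86 tags. Ttr had 87 and 116.5 nt on 250 and 84 tags, Rtn1, a reticulon of the neuronal endoplasmic reticulum, 59 and 88 nt, and Arl6ip1, another protein that shapes that membrane, 57 and 86 nt. H3f3b had 26 and 52 nt, and Ptbp2, a splicing repressor of young neurons, 41 and 67 nt. Map1b (chr13:99421464-99516602) had the largest lengthening, 53 nt in the adult and 36 nt in the embryo on 115 and 73 tags. It was followed by Cct6a, a chaperonin subunit, with 61 and 51 nt, and Gnas, which lies in a locus of overlapping transcripts, with 91 and 82 nt. Across the 169 genes the tail difference had a Spearman correlation of -0.571 with the embryonic tail value, which is itself part of the difference. The ranking thus partly follows the embryonic value.

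The shift over all genes needs a scale. RNA standards with tails of 30 to 200 nt, each with 50 tags or more in both libraries, read 1 to 13.5 nt longer in the embryonic library, with 27 and 28 nt for the standard of 30 nt, 53 and 55 nt for a standard of 50 nt, and 101 and 105 nt for a standard of 100 nt. Up to 100 nt this offset was 1 to 4 nt. A further entry listed with the standards, without a stated length, read 61 and 66.5 nt, an offset of 5.5 nt on 3371 and 1546 tags. The part of this offset in the gene values was not tested. The 4 dark-reared visual cortices of the series share a condition. Between pairs of them, median differences ran from -1.5 to 14 nt over 4609 to 5387 genes. A shift of 10 nt is within that range in size, but these medians cover far more genes than the hippocampal comparison. No such median was taken over the shared genes alone, so whether those genes shift by 10 nt within 1 condition was not tested. Among the genes shared with the hippocampal comparison, 0 to 10 of 161 were past 20 nt in such a pair, with an SD of 4.07 to 6.40 nt, against 9.07 nt between the hippocampi. After centring on the median, 1 hippocampal gene was shorter by over 20 nt, Laptm4a, and 1 longer, Map1b.

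**Figure D5:**
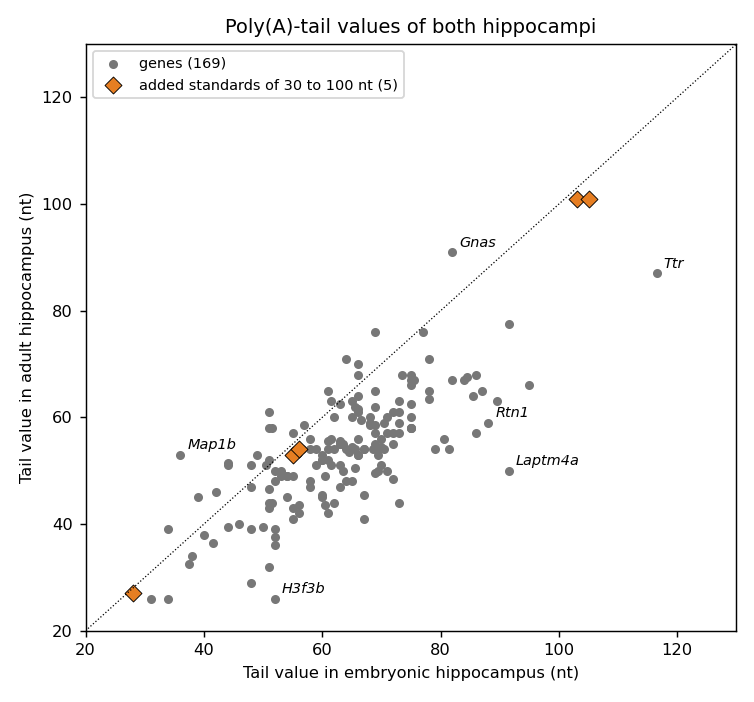
Deposited tail value in the embryonic (x axis, nt) and adult (y axis, nt) library for 169 genes with 50 tags or more in both, with 5 added standards of 30 to 100 nt as diamonds and the dotted line marking equality. Genes lie below the line by a median of 10 nt, and the standards lie 1 to 4 nt below it.

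Tail differences had little relation to the other measures. Across 151 genes with all values, the Spearman correlation of the tail difference was 0.01 with the RNA difference and 0.22 with the TE difference, as descriptions of libraries that share lysates. Tag counts, which measure mRNA abundance on 3′ ends, gave 6 of 169 genes (3.55%) past 2-fold higher in the adult and 56 (33.1%) lower, 36.7% in all, a split that centring on the median turns to 27 higher and 22 lower. They had the sign of the RNA-seq difference in 132 of 151 genes, with a Spearman correlation of 0.849. The gene lists with 10 or more tails were ribosomal proteins, where 22 genes had a median difference of -7.75 nt, and oxidative phosphorylation, where 16 had -11.5 nt, beside -10 nt over all genes.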

How the data were processed

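The submitters' processing notes name STAR 2.4.2, bedtools and mm10. The authors deposited counts per gene on the open reading frame without its first 50 nt, with RPM, used for the cutoff and as an alternative scaling, and log2 TE, which was used only as an alternative. For PAL-seq v2 the authors deposited tag counts and, as a score in nt whose measure is not named, a tail value per gene. Counts on 15359 RefSeq accessions, 107 without a symbol in the GRCm38 table, were divided by each library's total. Intervals of RNA differences are exact (Clopper-Pearson on both counts), and those of TE use a normal approximation on the log scale. They take reads as independent molecules, which no molecular identifiers secured. RPF counts were divided by the estimated reads per fragment for the widened intervals. Tail standards and rows that name no RefSeq transcript were left out of totals, and 2 samples without a group in the labels were not used. Results of some genes are not reported here. No test was run, since each tissue had 1 library per assay. Named genes were the 10 at each end in RNA, RPF and TE with 100 counts or more in each library, the 10 at each end in tail value, the 10 with the most reads among genes at the cutoff in 1 tissue, from each list the 4 with the most reads and the 2 with the largest RNA and TE differences, and the paired genes. Members and lists were chosen with earlier results of these data known. Analyses used Python 3.11.15, scipy 1.17.1 and pandas 2.3.3, and were tested on simulated data.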

Additional observations from a re-analysis of the deposited data

How the results depend on the processing

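No paired analysis was possible because each tissue had 1 library per assay. Of the 23 lists with 5 or more genes, 14 had a median RNA difference past 2-fold, and 11 to 16 did under the alternatives. Of 5436 RNA, 5431 RPF and 5431 TE genes, 1802, 2565 and 1200 were past 2-fold. At 30 RPM these became 640, 899 and 281 and at 1 RPM 4620, 5783 and 3725, since fewer or more genes were compared. At 4-fold they became 438, 914 and 252, and at 1.5-fold 3024 in RNA and 2444 in TE. A mean of 1000 RPFs, chosen after seeing the data, left 635 TE genes, and a mean of 10000 left 9. The authors' RPM, 0.5 added reads, centring and 20 RPFs kept these counts within 1.5 times. With 20 tags 272 genes were past 2-fold in tags and 179 past 20 nt in tails, and with 100 tags 28 and 4. At 10 nt 82 and at 30 nt 1 gene was past, and centred tails left 2. At 1 RPM the median RPF difference of hippocampal region markers turned from -1.01 to 0.16, with 14 genes in place of 7. None of the 636 differences of named genes changed sign where past 2-fold, under the authors' RPM, centring or added reads. For the authors' RPM and centring this was fixed in advance, since each shifts all differences of a measure alike by less than 2-fold. Of 1908 such alternative values of named genes, 790 moved by more than the counting error without widening. The uneven spread of RPFs, whose cause was not tested, limits TE of single genes, and the embryonic PAL-seq depth of 86841 tags limits tails to abundant mRNAs.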

Other observations

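Chromatin regulators of development were mostly lower in the adult. Of 16 compared, 9 were past 2-fold lower in RNA and 1 higher, beside 18.0% and 15.2% over all genes. In RPFs 12 were lower and 1 higher, beside 27.0% and 20.3%. Chd7, a remodeller needed in neural progenitors, had 471 RNA-seq reads in the adult and 4782 in the embryo, and Smarca4, the ATPase of the BAF remodelling complex, had 3411 and 12410. The exception was Chd5, a remodeller of mature neurons, with 4032 and 1290 reads.

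Of 22 RNA-binding proteins of development, 3 were past 2-fold higher in RNA and 4 lower, near the shares over all genes of 15.2% and 18.0%. Rbfox1, a splicing regulator of neurons, had 2036 and 250 reads and 11949 and 1497 RPFs. Syncrip, which takes part in mRNA transport and stability, had 422 and 2057 reads and 1272 and 10450 RPFs, and Hnrnpd, which binds AU-rich elements, had 1032 and 4071 reads. Among immediate early genes, which neuronal activity induces, 4 were compared and 6 reached the cutoff only in the adult. Arc, which acts on AMPA receptor uptake, had 1145 and 73 reads, whereas Nr4a3, a nuclear receptor, had 661 and 1702.

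Of 15 hippocampal region markers, 7 were compared, 5 reached the cutoff only in the adult and 3 only in the embryo. Among the 7, 3 were past 2-fold higher in RNA and 2 lower. Lhx2, a transcription factor that sets cortical and hippocampal identity early, had 727 and 5273 reads, and Nrp2, a semaphorin receptor, had 696 and 5405, while Dkk3, a secreted protein, had 2145 and 714. Among initiation factors outside the pyrimidine-tract class, 0 of 24 were past 2-fold higher in RNA and 6 lower, beside 15.2% and 18.0% over all genes. Eif4g2, a relative of the scaffold eIF4G, had 6600 and 24112 reads. Of 9 compared mRNAs with iron-responsive elements or selenocysteine codons, 4 were past 2-fold higher in RNA and 2 lower, beside the same 15.2% and 18.0%. Txnrd1, the cytosolic thioredoxin reductase, had 496 and 2217 reads, and Tfrc, the transferrin receptor, had 627 and 307 reads beside 1486 and 1657 RPFs.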
